A study of Mus musculus with 18 samples.

Results

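Messenger RNA of Arf-B cells was compared with that of Ctrlv2 cells at day 0, in 3 libraries per group out of the 18 libraries of the series. Both are cultures of ES-E14TG2a, a mouse embryonic stem cell line, kept in medium with 15% serum and leukaemia inhibitory factor (LIF) on gelatine. Day 0 is the time before activin A, the first signal of a pancreatic differentiation protocol, was given. Every library carries the genotype label wild type, Arf-B included. The sources used here do not say how the Arf-B and Ctrlv2 cells were made or whether Arf-B is 1 clone, although the series is about p19Arf. The labels number the replicates 1 to 3 without saying whether they come from separate cultures. P-values then measure only the spread between such replicates, pooled over the 6 groups and 18 libraries of the series, day 8 included. That spread may be technical. A gene was included when it reached 0.5 FPKM (fragments scaled to the length of the gene and the depth of the library) in at least 3 of the 6 libraries, which kept 14474 of 54532 genes. Of these, 225 start between 115 and 145 Mb of chromosome 2, 139 between 60 and 80 Mb of chromosome 14 and 17 between 100 and 105 Mb of chromosome 4. These 3 segments are described apart from the other 14093 genes. The filter also let in genes that reached the limit through 1 group alone, and for those it favoured a call towards that group.

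The Cdkn2a locus encodes 2 unrelated proteins from separate first exons. One is p16Ink4a, an inhibitor of the cyclin D kinases Cdk4 and Cdk6, and the other is p19Arf. p19Arf binds Mdm2, the ubiquitin ligase that marks the transcription factor p53 (gene Trp53) for degradation, and so stabilises p53. It is held in the nucleolus by nucleophosmin, the product of Npm1. Embryonic stem cells keep the locus low, and it is best known as a brake on the growth of cells in culture and on reprogramming to pluripotency.

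The 6 libraries held 22945409 to 33311220 reads on genes. For a gene 1 kb long, 3 reads correspond to 0.0930 to 0.137 FPKM. The 8 embryonic stem cell markers were all measured, and their summed level was 2381 to 2503 FPKM in Ctrlv2 and 1950 to 2140 in Arf-B. None of those 8 was called: Pou5f1, the gene of Oct4, was at 657 ± 46.0 FPKM in Ctrlv2 and 494 ± 26.3 in Arf-B (± is the SD over 3 libraries throughout; adjusted p = 0.0664), and Nanog at 262 ± 12.4 and 267 ± 58.0. The p-values rest on the spread over all 18 libraries, so a marker not called is not thereby shown to be unchanged. Of 9 fibroblast feeder markers 7 were below 0.5 FPKM in all 6 libraries, and Dcn, Postn and Lum were at 0. The feeder sum was 16.2 to 18.2 FPKM in Ctrlv2 and 4.13 to 6.14 in Arf-B, most of it Thy1. The 4 mesoderm, 4 trophoblast and 4 two-cell-like markers were below 0.5 FPKM in every library. In bulk RNA, fewer cells of a type and less RNA per cell cannot be told apart.

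The differences between the groups followed the GC content of transcripts, and the cause of this was not tested. Among the 14093 genes, the 1409 with the lowest GC content of their longest transcript had a median log2 difference of 0.33, and the 1409 with the highest had -0.12. In that lowest decile the libraries deviated from each gene's mean by -0.36, 0.03 and -0.16 (Ctrlv2 replicates 1 to 3) and by 0.17, 0.22 and 0.12 (Arf-B). All 3 Ctrlv2 libraries lay below all 3 of Arf-B, with replicate 2 of Ctrlv2 nearest to them. The fit was repeated with this trend taken off each library, an adjustment chosen after seeing the data. Calls of genes described below that it ended, and list counts that it moved by over 1.5 times, are given beside the value.

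**Figure D1:**
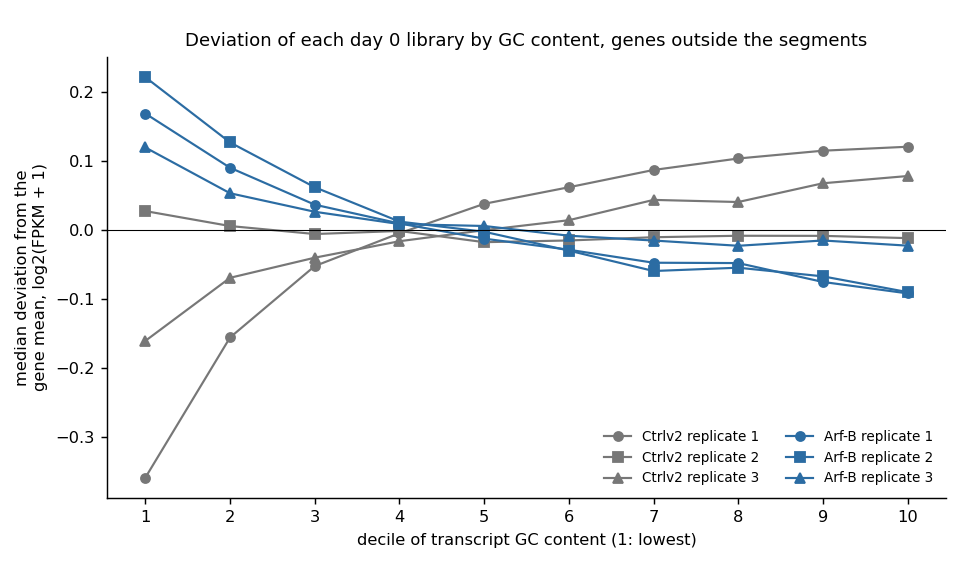
Median deviation of each library from the gene mean (log2 FPKM + 1, y axis) by decile of transcript GC content (x axis), for the 14093 genes outside the segments, 1 line per library. In the decile with the lowest GC content the Ctrlv2 lines end at -0.36, 0.03 and -0.16 and the Arf-B lines at 0.17, 0.22 and 0.12.

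The sequences just upstream of the Cdkn2a first exons and of 4 germline genes that were lower in Arf-B are shown first, because the density of CG before a gene bears on how Polycomb and DNA methylation are known to act on it. They come from RefSeq on GRCm38.p6, run 5′ to 3′ on the gene's strand, hold only bases before the first exon, and have every CG in capitals. The Arf first exon of Cdkn2a lies upstream of the Ink4a first exon on the minus strand of chromosome 4. Its 216 upstream bases (chr4:89294654-89294869) hold 35 CG, while the 250 bases before the Ink4a first exon (chr4:89282193-89282442) hold 7. The germline genes are Fmr1nb (chrX:68761589-68761838, plus strand), Fkbp6 (chr5:135350045-135350294, minus), Taf7l (chrX:134476491-134476740, minus) and Mael (chr1:166238748-166238994, minus).
Cdkn2a, before the Arf exon: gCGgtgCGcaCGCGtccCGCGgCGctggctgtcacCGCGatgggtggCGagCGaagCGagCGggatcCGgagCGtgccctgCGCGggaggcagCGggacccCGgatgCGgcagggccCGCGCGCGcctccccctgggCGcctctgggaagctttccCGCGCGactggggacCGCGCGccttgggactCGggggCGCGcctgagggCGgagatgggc
Cdkn2a, before the Ink4a exon: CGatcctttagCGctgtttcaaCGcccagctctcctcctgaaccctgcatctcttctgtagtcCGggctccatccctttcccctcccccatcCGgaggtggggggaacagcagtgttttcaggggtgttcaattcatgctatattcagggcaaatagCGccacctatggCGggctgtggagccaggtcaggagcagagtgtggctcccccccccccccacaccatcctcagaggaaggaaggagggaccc
Fmr1nb: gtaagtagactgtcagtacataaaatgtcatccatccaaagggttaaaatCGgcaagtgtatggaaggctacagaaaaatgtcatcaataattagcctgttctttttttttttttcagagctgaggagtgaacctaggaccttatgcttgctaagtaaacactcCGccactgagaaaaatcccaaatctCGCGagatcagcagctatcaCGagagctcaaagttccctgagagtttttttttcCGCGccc
Fkbp6: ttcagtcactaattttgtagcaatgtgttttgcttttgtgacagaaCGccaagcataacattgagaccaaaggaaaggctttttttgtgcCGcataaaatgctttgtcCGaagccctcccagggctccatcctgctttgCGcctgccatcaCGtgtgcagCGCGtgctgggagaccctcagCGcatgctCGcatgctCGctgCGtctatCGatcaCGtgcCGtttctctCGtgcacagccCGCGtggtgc
Taf7l: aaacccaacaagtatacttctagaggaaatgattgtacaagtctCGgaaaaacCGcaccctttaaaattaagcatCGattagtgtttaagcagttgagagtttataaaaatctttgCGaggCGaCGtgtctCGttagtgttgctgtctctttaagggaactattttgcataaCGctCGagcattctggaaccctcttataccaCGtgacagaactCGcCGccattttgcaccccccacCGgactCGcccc
Mael: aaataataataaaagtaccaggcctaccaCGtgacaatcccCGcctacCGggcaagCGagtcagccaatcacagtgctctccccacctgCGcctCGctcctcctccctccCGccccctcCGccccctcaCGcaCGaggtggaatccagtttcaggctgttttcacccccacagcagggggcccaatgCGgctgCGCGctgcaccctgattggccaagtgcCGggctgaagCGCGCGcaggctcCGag

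Those stretches hold 7 CG in Fmr1nb, 17 in Fkbp6, 14 in Taf7l and 18 in Mael, against a median of 6 over the 32851 promoters of the RefSeq table. The letters CACGTG, an E-box that reads the same on both strands, occur 2 times in Fkbp6, 1 time in Taf7l and 1 time in Mael, and not in Fmr1nb or in either Cdkn2a stretch. Of all 32851 promoters 6.02% hold it.

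Cdkn2a was expressed at a low level in both groups. The gene (ENSMUSG00000044303, minus strand of chromosome 4, 89274471 to 89294653 on mm10) was at 2.92, 1.89 and 3.36 FPKM in Ctrlv2 against 1.67, 2.14 and 2.14 in Arf-B. Replicate 2 of Ctrlv2 lay within the range of Arf-B, and the other 2 lay above it. The log2 difference was -0.30 (SE 0.111, adjusted p = 0.0356, limma over all genes). That call was lost without replicate 1 of Arf-B (adjusted p = 0.153), replicate 1 of Ctrlv2 (0.120) or replicate 3 of Ctrlv2 (0.203), and with the GC trend taken off (0.183). Over the alternatives tried the adjusted p ran from 0.000177 to 0.203. Arf-B libraries held 55 to 72 reads of the gene, and Ctrlv2 libraries 56 to 127. These are reads on the whole gene, so the 2 first exons cannot be told apart.

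Of 16 tested genes of the Cdkn2a locus and of p53 and its regulators, 6 were higher (37.5%, against 23.0% of all 14093 genes), 2 were lower and 8 were not called, and 5 and 1 were called with the GC trend taken off. The 2 lower genes were Cdkn2a and Trp53. Mdm2 was at 22.7, 24.2 and 23.3 FPKM in Ctrlv2 against 32.0, 34.9 and 27.1 in Arf-B, so that every Arf-B library lay above every Ctrlv2 one (log2 0.40, SE 0.0859, adjusted p = 0.00129). Mdm4, which encodes a partner of Mdm2 that also restrains p53, went from 15.5, 21.3 and 17.0 to 38.6, 33.0 and 25 FPKM (log2 0.80, SE 0.133, adjusted p = 0.000145). Atm, the DNA damage kinase, was higher by log2 0.74, and Trip12, a ubiquitin ligase that acts on p19Arf, by 0.57. Npm1 was at 743, 972 and 847 FPKM in Ctrlv2 against 967, 1184 and 1168 in Arf-B. Its groups overlapped by the lowest Arf-B library (log2 0.38, SE 0.106, adjusted p = 0.00861), and the call was lost without replicate 1 of Ctrlv2 and with the GC trend taken off (adjusted p = 0.103; the alternatives ran from 0.000908 to 0.103). Trp53 was at 136, 117 and 135 against 101.0, 111 and 111 FPKM. The groups did not overlap (log2 -0.26, SE 0.076, adjusted p = 0.00952), and the adjusted p was 0.0507 with the GC trend taken off, over a range of 0.00216 to 0.0507. Cdkn1a, the p21 gene, was at 10.7 ± 2.00 and 9.98 ± 0.751 FPKM and was not called (adjusted p = 0.649). Cdkn2b, next to Cdkn2a, was at 0.471 ± 0.183 and 0.716 ± 0.152 and was not called either (adjusted p = 0.225).

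Of 37 p53 target genes tested 18 were higher and 6 lower, with a median log2 difference of 0.29. Over all 14093 genes 23.0% were called higher and 22.2% lower, with a median of 0.01. Ccng1, for cyclin G1, was at 29.6, 35.9 and 35.1 FPKM in Ctrlv2 against 76.6, 86.5 and 61.2 in Arf-B (log2 1.12). Trp53inp1, for a stress-induced nuclear protein, was at 13.1, 23.6 and 15.5 against 39.1, 41.6 and 30.1. Neither gene's groups overlapped. The lower members were led by Phlda1 (6.36, 5.86 and 6.09 against 0.718, 1.31 and 1.14 FPKM), Perp, a membrane protein gene of p53-dependent apoptosis (23.3, 19.5 and 24.4 against 7.14, 7.25 and 6.35), and Pmaip1, which encodes the death protein Noxa (25.3, 27.8 and 30.3 against 8.29, 10.2 and 8.29). In these 3 genes each Arf-B library was below each Ctrlv2 library. Targets therefore moved both ways: among the higher ones were also Dcxr (log2 1.06) and the receptor gene Eda2r (0.91). Of 23 genes of the Bcl-2 family and caspases outside the segments, 4 were higher and 9 lower. Bcl2l1, which encodes the survival protein Bcl-xL (17.2 ± 1.64 against 8.90 ± 0.287 FPKM), and the death genes Bak1 (38.7 ± 2.54 against 23.1 ± 1.91) and Casp8 (log2 -0.84) fell together.

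**Figure D2:**
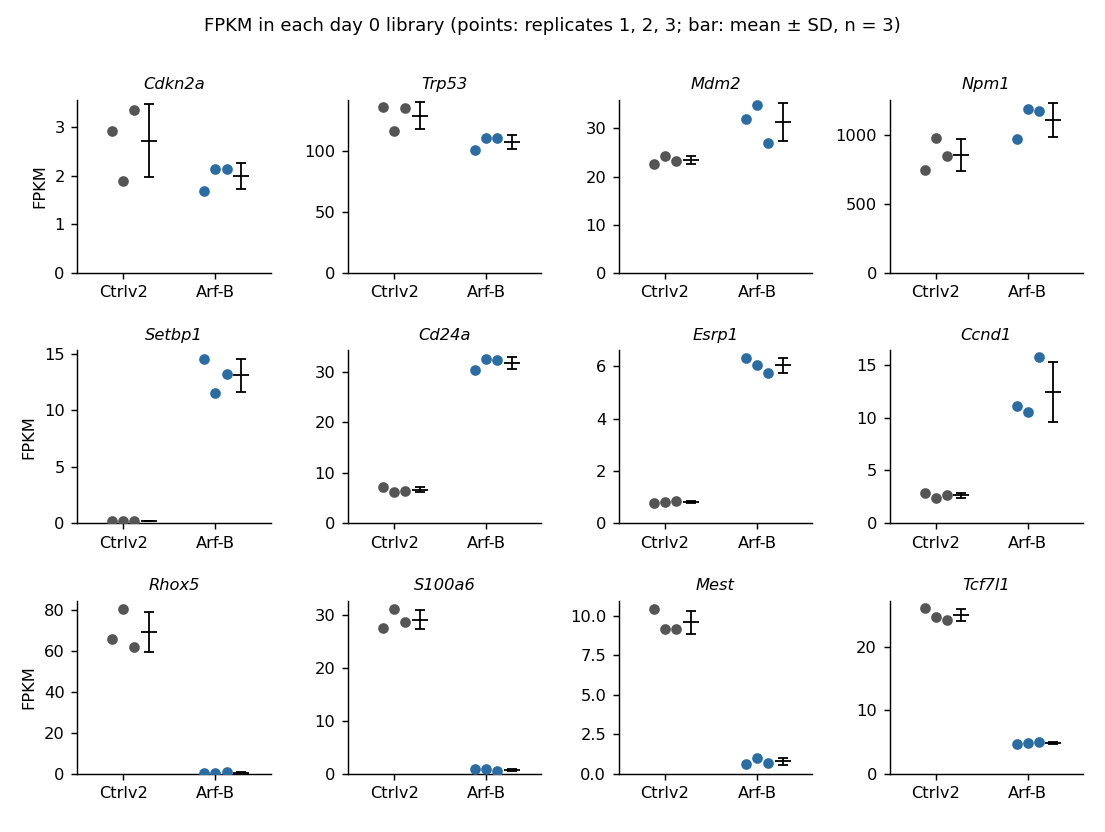
FPKM (y axis, from 0) in each of the 6 libraries for 12 genes, 1 panel per gene, with 3 points each for Ctrlv2 and Arf-B and a bar at the mean ± SD (n = 3). The points of Cdkn2a and Npm1 overlap between groups, while those of Setbp1, Cd24a, Esrp1, Ccnd1, Rhox5, S100a6, Mest and Tcf7l1 are apart.

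Across all 14474 genes 45.9% were called (6650). Outside the segments 45.2% were called, 3245 higher and 3132 lower, of which 220 (1.56%) and 379 (2.69%) by at least 2-fold on the log2(FPKM + 1) scale. Without replicate 2 of Ctrlv2 the count of genes higher by at least 2-fold was 335. All 3 libraries of one group lay above all 3 of the other in 3682 genes (26.1%) with Arf-B high and in 3631 (25.8%) with Arf-B low. Genes called higher had a median GC content of 45.7% and genes called lower 52.7%. With the GC trend taken off, 2484 of the 3245 (76.5%) and 2620 of the 3132 (83.7%) were still called in the same direction.

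**Figure D3:**
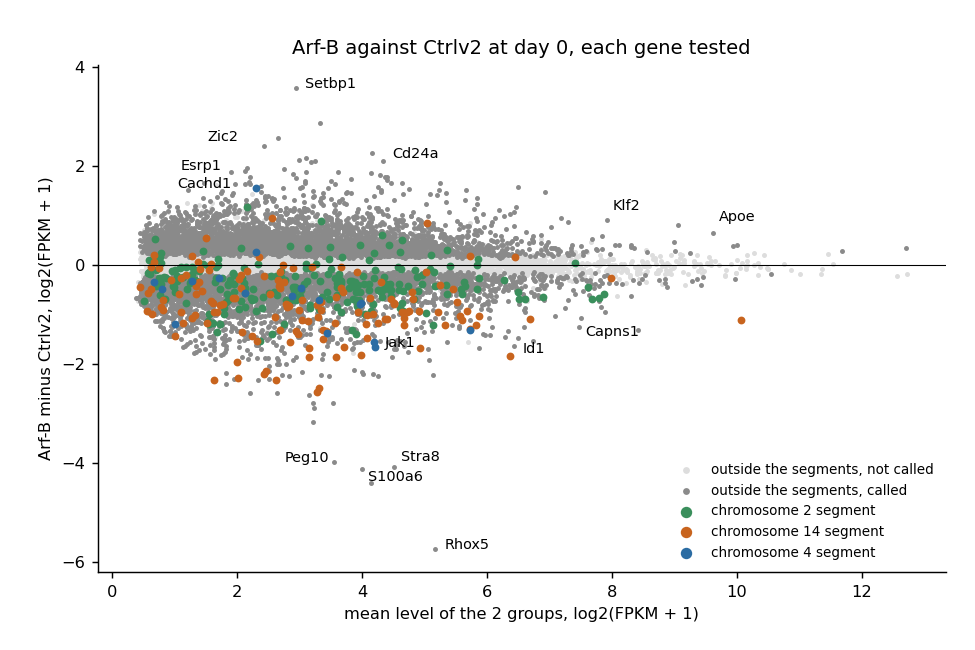
Log2 difference of Arf-B minus Ctrlv2 (y axis) against the level, log2(mean FPKM of both groups + 1) (x axis), 1 point for each of the 14474 genes, dark grey where called, and coloured by segment. Setbp1 stands highest at 3.57 and Rhox5 lowest at -5.73.

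Rhox5, S100a6, Stra8 and Peg10 had the largest reductions of the named genes. Rhox5, a homeobox gene of a reproductive gene cluster on the X chromosome (37804842 to 37808876), was at 65.7, 80.4 and 61.9 FPKM in Ctrlv2 against 0.210, 0.138 and 0.667 in Arf-B (log2 -5.73, SE 0.189, adjusted p = 5.23e-12). S100a6, for a small calcium-binding protein (chromosome 3, 90612882 to 90624181), was at 27.5, 31.1 and 28.7 against 0.880, 0.865 and 0.502. The 2 groups were thus 205-fold and 38.9-fold apart in mean FPKM. Mest, a paternally expressed imprinted gene of the hydrolase fold, went from 10.5, 9.19 and 9.18 to 0.626, 1.02 and 0.684 FPKM (log2 -2.58). Myl4, a myosin light chain gene of embryonic muscle and atrium, was at 6.87 ± 0.507 against 0.306 ± 0.0526. Plet1, a surface protein gene of early placenta, was at 14.1 ± 0.262 against 1.48 ± 0.311. Each of these was 9.56-fold (Plet1) or more below Ctrlv2, with no overlap between libraries. Rhox5 and Myl4 could not have passed the filter without Ctrlv2, so the filter itself favoured a lower value in Arf-B.

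Other large reductions were in genes of separate kinds. Msln, which encodes the mesothelial surface protein mesothelin, was at 5.40 ± 0.641 FPKM in Ctrlv2 and 0.292 ± 0.0577 in Arf-B. Msln too passed the filter only through Ctrlv2. Nccrp1, an F-box protein gene of squamous epithelium, was at 8.41 ± 0.817 against 0.904 ± 0.127, and Krt17, a keratin gene, at 17.3 ± 0.549 against 2.91 ± 0.875. Pla2g7, for the enzyme that breaks down platelet-activating factor, was at 19.2 ± 2.09 against 1.95 ± 0.485. Tuba3a, a tubulin gene of the testis, was at 30.4 ± 3.77 against 5.68 ± 0.830. Reads of Tuba3a may be split with its near-identical copy Tuba3b, so that value is uncertain.

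The largest increase was Setbp1 (chromosome 18, 78750380 to 79109391), whose product binds the nuclear protein SET. It was at 0.162, 0.187 and 0.212 FPKM in Ctrlv2 against 14.5, 11.6 and 13.2 in Arf-B, a 70.2-fold difference in means. Setbp1 passed the filter only through Arf-B, so the filter itself favoured a higher value there. Cd24a, a surface glycoprotein gene, was at 7.23, 6.24 and 6.49 against 30.4, 32.5 and 32.3. Esrp1, which encodes a splicing factor of epithelial cells, was at 0.787, 0.792 and 0.855 against 6.33, 6.05 and 5.76 FPKM (log2 1.96, SE 0.0991, adjusted p = 4.29e-10). Libraries within a group were close in these 3 genes and the groups did not overlap. Ccnd1, for cyclin D1, the partner of Cdk4 and Cdk6, was at 2.90, 2.37 and 2.65 against 11.1, 10.6 and 15.7. Dnah8, a dynein heavy chain gene of sperm tails, was at 4.21 ± 0.526 against 18.2 ± 2.33. Tdrd12, a gene of the piRNA pathway, was at 2.56 ± 0.541 against 10.8 ± 0.730, although germline genes as a list were mostly lower. Sall3, a zinc finger factor gene related to the pluripotency gene Sall4, was at 1.08 ± 0.157 against 6.09 ± 0.194. Zfp980 varied widely among the Ctrlv2 libraries: it was at 4.52, 14.6 and 8.45 FPKM there and at 29, 33.1 and 30.2 in Arf-B. The mitochondrial transfer RNA gene mt-Tv also stood among the 15 largest, on 0 to 5 reads in Ctrlv2 and 12 to 22 in Arf-B. Mup6 belongs to a family of near-identical genes, so its log2 difference of 2.07 is uncertain.

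Ranked by the difference in mean FPKM, other genes led. Apoe, for the lipid carrier apolipoprotein E, went from 706, 555 and 584 to 943, 951 and 968 FPKM (log2 0.64, SE 0.0799, adjusted p = 8.51e-06). Atp5a1, a subunit of the mitochondrial ATP synthase, went from 418, 348 and 394 to 660, 693 and 682. Fabp3, a fatty acid binding protein gene, went from 72.6, 56.1 and 63.4 to 173, 182 and 178. In each of the 3 the groups were apart. Klf2, a Krüppel-like factor of naive pluripotency, was at 166 ± 3.53 against 314 ± 38.1 (log2 0.91, adjusted p = 0.00981), and Trh, for thyrotropin-releasing hormone, at 96.5 ± 3.05 against 191 ± 48.3. Of the abundant genes that fell, Bex1 was at 314, 308 and 304 FPKM in Ctrlv2 against 137, 157 and 188 in Arf-B. Capns1, the shared small subunit of the calpain proteases, was at 257, 235 and 250 against 96.0, 108 and 107. Epop, which encodes a partner of Polycomb complex PRC2, was at 234, 248 and 251 against 111, 111 and 127. Those 3 genes were lower in every Arf-B library. Tmsb10, for an actin-binding peptide, fell from 782 ± 53.9 to 591 ± 70.5.

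Gene lists chosen for embryonic stem cells were described by the count of their tested members outside the segments and by their median, to be read against 23.0% higher, 22.2% lower and a median of 0.01 over all genes. Genes of formative and primed pluripotency, the states that follow the naive one, stood out by their higher count: 11 of 17 were higher (64.7%, median 0.74). The 5 lower ones (29.4%, and 4 with the GC trend taken off) were near the share over all genes. Zic2 was at 0.689, 0.537 and 0.915 FPKM in Ctrlv2 against 7.75, 9.01 and 7.35 in Arf-B, and its neighbour Zic5, another zinc finger factor gene, at 0.606 ± 0.118 against 4.89 ± 0.502. Otx2, a homeobox gene that drives exit from the naive state, was at 1.15, 0.967 and 1.2 against 5.46, 6.24 and 4.99. Tfap2c was at 1.95 ± 0.312 against 11.9 ± 2.60. Foxd3 went the other way, from 22.4, 29.8 and 22.8 to 9.25, 8.56 and 8.69 FPKM, and Etv4 fell from 87.1 ± 2.09 to 41.6 ± 7.36. Foxd3 starts at 99656299 on chromosome 4, just before the segment there. No gene named from this list had overlapping groups.

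Naive pluripotency genes moved less. Of 17 tested 2 were higher and 5 lower (median -0.05), and the lower count was 2 without replicate 1 or 3 of Ctrlv2 and 3 without replicate 2 of Ctrlv2 or replicate 1 or 2 of Arf-B and with the GC trend taken off. Klf5, a factor of the naive network, was at 175, 191 and 179 FPKM in Ctrlv2 against 92.0, 88.6 and 84.5 in Arf-B, without overlap. It starts at 99298691 on chromosome 14, beyond the segment but within a longer stretch of lowered genes described below. Of 14 core pluripotency genes 5 were higher and none lower. The largest was Rif1, a telomere and replication timing gene, at 11.5, 36.2 and 19.2 against 58.7, 56.2 and 54.6, with a wide spread in Ctrlv2. Mycn rose from 9.80 ± 0.763 to 16.5 ± 2.19. Zfp42 was at 504 ± 38.4 and 388 ± 11.1 FPKM and Sox2 at 302 ± 5.33 and 251 ± 26.1, neither called (adjusted p = 0.0833 and 0.115).

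**Figure D4:**
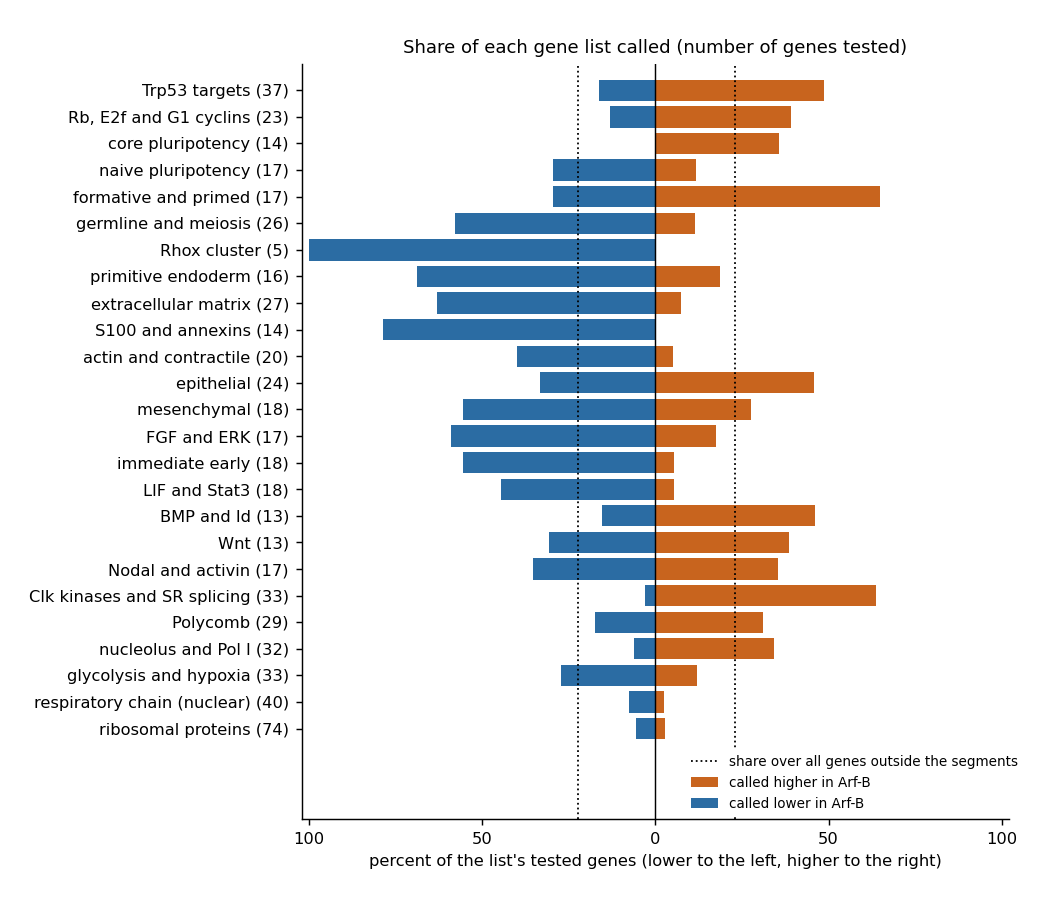
Percent of tested members (x axis) called higher (bars to the right) or lower (to the left) in Arf-B for 25 of the gene lists (y axis, number tested in brackets), with dotted lines at the share over all 14093 genes (23.0% higher, 22.2% lower). Formative genes reach 64.7% higher, and S100 and annexin genes 78.6% lower.

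Germline and meiosis genes were mostly lower: 15 of 26 fell, 3 rose, and the median was -0.45. The higher count was 1 without replicate 1 of Ctrlv2 and with the GC trend taken off. Stra8, a gatekeeper of meiosis, was at 41.8, 35.5 and 48.4 FPKM in Ctrlv2 and 1.6, 1.72 and 1.29 in Arf-B. Fmr1nb was at 15.9, 13.4 and 17.3 against 1.08, 2.15 and 0.683, Fkbp6, needed for chromosome pairing in meiosis, at 9.37, 7.91 and 9.41 against 1.99, 1.63 and 1.252, and Taf7l, a testis form of a general transcription factor subunit, at 5.40, 6.13 and 5.08 against 1.66, 1.66 and 1.12. Mael, of the piRNA pathway, kept more of its level, at 20.4, 18.3 and 21.0 against 8.42, 8.93 and 8.84. All 5 were lower in each Arf-B library than in any Ctrlv2 library. Sohlh2, a factor of early germ cells (log2 -1.52), and Tex19.1 (-0.90) also fell. In upstream stretches taken like those above, CACGTG occurred in 5 of the 14 lower genes found in RefSeq (Fkbp6, Mael, Mov10l1, Slc25a31 and Taf7l), in 3 of the 8 not called and in 3 of the 3 higher ones (Stk31, Sycp1 and Taf9b, the last 2 not called with the GC trend taken off). The median number of CG was 15, 14.5 and 20 in these 3 sets.

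Of 15 listed genes of the Rhox cluster 5 passed the filter, and all 5 were lower. Rhox5, Rhox6 and Rhox10 could not have passed it without Ctrlv2, so the filter itself favoured a lower value in Arf-B. The count therefore does not describe the whole cluster. Beside Rhox5, Rhox13 was at 14.1, 16.6 and 16.4 FPKM in Ctrlv2 against 0.867, 1.23 and 0.522 in Arf-B. Rhox6 was at 2.14 ± 0.258 against 0.363 ± 0.183, and Rhox10 at 1.88 ± 0.702 against 0.112 ± 0.0180. Rhox1 was at 2.09, 1.12 and 1.65 against 0.968, 0.591 and 0.259 (adjusted p = 0.0199), and its call was lost without replicate 3 of Arf-B or without replicate 1 or 3 of Ctrlv2 (adjusted p over the alternatives 0.0127 to 0.108). Members of this cluster resemble one another, so reads may be split between them.

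Imprinted genes did not share a direction. Of 14 paternally expressed genes 3 were higher and 5 lower. Peg10, a retrotransposon-derived placental gene, was at 19.8, 23.4 and 19.9 FPKM in Ctrlv2 and 0.294, 0.350 and 0.562 in Arf-B, and its neighbour Sgce at 0.613 ± 0.0786 against 0.0138 ± 0.00542. Peg3 was higher, at 1.34, 1.89 and 1.49 against 3.72, 3.54 and 3.54. Of 17 maternally expressed genes 6 were higher and 4 lower, and the lower count was 2 without replicate 1 of Arf-B or replicate 1 or 3 of Ctrlv2 and with the GC trend taken off. The long noncoding RNA Meg3 was at 6.69 ± 0.808 against 10.5 ± 0.897 and the transporter gene Slc22a18 at 11.6 ± 2.09 against 4.75 ± 0.159. Peg10, Sgce and Mest, which lie on chromosome 6, had no overlap between groups, nor did Peg3. Peg10 and Sgce could not have passed the filter without Ctrlv2, so the filter itself favoured a lower value in Arf-B.

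Among regulators of DNA methylation 5 of 21 were higher and 5 lower. Dnmt3a, a de novo methyltransferase, was at 1.94, 1.81 and 1.87 FPKM in Ctrlv2 against 4.85, 4.49 and 5.39 in Arf-B. Dnmt3b, the other such enzyme, had a log2 difference of -0.36 and was called lower. Hells, a remodeller needed for methylation, was at 32.6, 68.7 and 46.1 against 81.5, 87.1 and 79.9. The higher count was 3 without replicate 3 of Arf-B. Of 29 Polycomb genes 9 were higher and 5 lower, and 5 were higher without replicate 1 of Ctrlv2. Bcor, of the variant complex PRC1.1, was at 2.77, 2.22 and 2.43 against 7.63, 7.48 and 7.14. The PRC2 partners Jarid2 (73.9, 87.7 and 76.9 against 48.4, 46.2 and 45.7), Phf19 (5.67 ± 0.319 against 2.29 ± 0.118) and Epop were lower. So was E2f6, whose product joins the variant complex PRC1.6 at germline promoters, at 10.6, 10.4 and 10.8 against 6.54, 6.67 and 6.32 FPKM. Each gene given here by library had groups that did not overlap.

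In the cell cycle, D-type cyclins changed in opposite directions. Ccnd1 rose as given above, and Ccnd3, for cyclin D3, went from 38.4, 35.5 and 38.2 to 10.3, 10.7 and 12.9 FPKM (log2 -1.64, SE 0.0832, adjusted p = 4.29e-10). Cdk4 was at 145, 139 and 142 against 165, 188 and 184. The groups did not overlap in these genes, and the Arf-B libraries of Ccnd1 spread the most. Of 23 genes of the Rb and E2F pathway 9 were higher and 3 lower. E2f2 fell from 12.1, 10.9 and 11.9 to 3.93, 4.09 and 4.77. Of 27 replication and mitosis genes 9 were higher and 3 lower, and the lower count was 0 without replicate 1 of Ctrlv2 and 1 without replicate 3 of Ctrlv2 or replicate 1 or 2 of Arf-B. The 2 largest rises were in genes that varied widely within Ctrlv2: Cenpe, a kinetochore motor gene, was at 2.92, 11.6 and 5.64 against 18.3, 18.1 and 18.2, and Mki67, the gene of the Ki-67 proliferation antigen, at 7.01, 22.9 and 12.7 against 27.9, 24.6 and 26.5. In both, replicate 2 of Ctrlv2 lay nearest to Arf-B, as it did in the GC trend, and the part of that trend in them was not tested beyond the adjusted fit, where the log2 differences were 1.32 and 0.96.

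Components of the Wnt pathway changed in a mixed way, with 5 of 13 listed genes higher and 4 lower. Tcf7l1, the repressor that bounds Wnt output in stem cells, was at 26.1, 24.6 and 24.3 FPKM in Ctrlv2 against 4.65, 4.83 and 5.07 in Arf-B (log2 -2.15, SE 0.0793, adjusted p = 1.03e-11). Axin2, a negative feedback target, was at 1.47, 1.56 and 1.48 against 4.15, 3.87 and 4.47, and the receptor gene Fzd7 at 14, 12.5 and 12.5 against 29, 26.4 and 26.3. Their groups were tight and did not overlap. Ccnd1 is also on this list, and Myc, another target, fell from 19.9 ± 0.595 to 9.45 ± 1.30.

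Listed genes of FGF and ERK signalling, feedback genes among them, were mostly lower: 10 of 17 fell, 3 rose, and the median was -0.48. Etv4 (log2 -1.06), a transcription factor induced by FGF, was joined by the phosphatase genes Dusp5 (-1.02) and Dusp6, the latter at 49.0, 54.2 and 50.9 FPKM in Ctrlv2 and 26.2, 29.2 and 34.8 in Arf-B. Dusp4, of the same phosphatase family, rose from 2.59, 3.66 and 3.04 to 10.3, 9.09 and 14.3. Spry2 was at 110.3, 127 and 114 against 71.0, 78.8 and 72.7, and lies in the lowered stretch of chromosome 14 beyond the segment. Of 18 immediate early genes, the first to answer growth factors, 10 fell and 1 rose. Egr1 was at 21.9, 19.6 and 21.2 against 6.11, 6.00 and 6.93, Ier3 at 8.05 ± 1.12 against 2.57 ± 0.679, and Fos at 2.58 ± 0.543 against 0.828 ± 0.211. The rise was Klf6 (log2 0.26), whose call was lost with the GC trend taken off. Without replicate 3 of Ctrlv2 no member was higher, and without replicate 1 of Arf-B 2 were.

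Listed genes of the LIF and Stat3 pathway, targets among them, were lower in 8 of 18 cases and higher in 1. The lower count was 5 without any 1 of the Arf-B libraries, without replicate 1 of Ctrlv2 and with the GC trend taken off, and none was higher without replicate 1 or 2 of Arf-B or replicate 1 or 3 of Ctrlv2. Pim1, a survival kinase gene, was at 48.3 ± 1.35 against 24.5 ± 1.80 FPKM, and Bcl3 at 34.2 ± 1.68 against 17.7 ± 0.218. Socs3, the direct feedback inhibitor, was at 68.9 ± 4.60 against 53.0 ± 3.44 (adjusted p = 0.0425), a call kept only without replicate 2 of Ctrlv2 among the 6 omissions and lost with the GC trend taken off (0.174, the highest of alternatives that ran from 0.00242). Jak1, the kinase below the LIF receptor, lies in the chromosome 4 segment and is given there. Of 13 BMP pathway genes 6 were higher and 2 lower. The 2 were the largest changes: the ligand gene Bmp4 was at 86.6, 106 and 92.0 against 33.9, 32.2 and 39.1, and its target Id1 at 119, 140 and 128 against 40.1, 43.2 and 39.5. Id3, a target of the same pathway, was higher, at 11.3, 9.91 and 10.3 against 20.0, 20.8 and 26.7. The 2 Id genes thus moved apart, each without overlap.

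Nodal and activin genes, which answer the ligand given from day 0 on, were called higher in 6 of 17 and lower in 6. The higher count was 3 without replicate 3 of Ctrlv2. Inhbb, a subunit gene of activin B, was at 39.7, 40.4 and 40.4 FPKM in Ctrlv2 and 11.4, 11 and 11.2 in Arf-B. Fst, for the activin antagonist follistatin, was at 0.798, 0.682 and 0.696 against 2.53, 2.84 and 2.39. Smad7, an inhibitor of the pathway, was at 32.1 ± 2.27 against 15.8 ± 2.50. Inhbb and Fst thus moved in opposite directions, each with close libraries, and Smad7 fell with Inhbb.

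S100, annexin and matrix genes were largely lower. Of 14 S100 and annexin genes 11 fell and none rose (median -0.79). S100a11, of the same calcium-binding family as S100a6, was at 115, 115 and 107 FPKM against 31.3, 35.4 and 58.1, and Anxa5, for a protein that binds membrane phospholipid, at 18, 16.9 and 17.9 against 5.58, 4.85 and 6.4. Of 27 matrix genes 17 fell and 2 rose (median -0.52). Sparc, for a collagen-binding matrix protein, was at 92.4, 79.0 and 92.9 against 24.6, 25.7 and 30.1, and Lama1, a laminin chain gene of basement membranes, at 40.2, 35.4 and 34.9 against 14.1, 11.3 and 15.8. Fibronectin was the exception among abundant members, since Fn1 was at 108, 92.2 and 86.2 against 188, 142 and 159. All 5 had groups apart. Of 20 actin and contractile genes 8 fell, 1 rose (2 without replicate 1 of Arf-B and with the GC trend taken off) and 11 were not called. The lower ones included Pdlim7 (log2 -0.77) and the actinin genes Actn1 (-0.70) and Actn4 (-0.63).

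Lists that name other cell types overlapped with these genes. Of 16 primitive endoderm genes 11 were lower and 3 higher (median -0.60), and the lower ones included Sparc, Lama1, Col4a2 (3.22 ± 0.223 against 1.08 ± 0.178), Krt8 and other matrix and keratin genes. Of 6 defining primitive endoderm markers Dab2, Gata6, Pdgfra and Sox17 were below 0.5 FPKM in all 6 libraries. The sum of the 6 was 4.13 to 4.89 FPKM in Ctrlv2 and 2.21 to 2.86 in Arf-B. The markers that passed the filter, Sox7 (log2 -1.16, called) and Gata4 (-0.08, not called), lie in the chromosome 14 segment, where most genes were lower. Of 7 endothelial and blood genes 5 were lower, among them the receptor gene Tek (3.81 ± 0.363 against 1.85 ± 0.0706), while Cdh5 and Ptprc were below 0.5 FPKM and Hbb-bs was at 0 in all 6. Thy1, the one abundant feeder marker, was at 16.2, 14.6 and 16.4 against 2.33, 2.54 and 2.90, without overlap. What part cells of these types have in the result was not tested.

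Of 24 epithelial genes tested 11 were higher and 8 lower, and the higher count was 6 without replicate 2 of Ctrlv2. Counted after seeing the values, all 4 tested claudins, the sealing proteins of tight junctions, rose, all 3 keratins fell, and of the other 17 genes 7 rose and 5 fell. Of the claudins, Cldn6 went from 6.74, 5.60 and 6.48 to 17.7, 16.8 and 15.0 FPKM, Cldn3 from 1.37 ± 0.371 to 4.45 ± 0.430, and Cldn4 from 45.1 ± 4.54 to 72.0 ± 1.77. Of the keratins, which form the filaments of simple epithelia, Krt19 went from 3.43, 2.95 and 3.34 to 0.119, 0.319 and 0.517, Krt8 from 11.6 ± 1.86 to 4.88 ± 0.102, and Krt18 from 5.66 ± 1.12 to 2.89 ± 0.321. Krt19 could not have passed the filter without Ctrlv2, so the filter itself favoured a lower value in Arf-B. Of 18 mesenchymal genes 5 were higher and 10 lower. Vim, for the filament protein vimentin, was at 20.8, 19 and 20.6 against 34.6, 37.8 and 43.9, while Tagln2, an actin-binding gene, was at 138, 120 and 136 against 43.9, 47.0 and 48.2. Stmn2, a neuronal microtubule regulator, was at 17.8, 16.3 and 17.4 against 51.4, 58.9 and 58.5. Each of these had separate groups.

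Of 33 glycolysis and hypoxia genes 9 were lower and 4 higher, the higher count being 1 without replicate 3 of Arf-B or replicate 2 of Ctrlv2. The largest reductions called were in glucose uptake and the first step of its use: the transporter gene Slc2a1 was at 84.9, 89.1 and 96.4 FPKM in Ctrlv2 against 31.3, 29.7 and 38.5 in Arf-B, and the hexokinase gene Hk2 at 83.9, 97.9 and 81.3 against 31.6, 29.8 and 37.1. Hk1 was at 11.4 ± 0.357 against 5.84 ± 0.211. Of 40 nuclear genes of the respiratory chain 1 was higher, Atp5a1, and 3 lower. With the GC trend taken off these were 4 and 6, without replicate 1 of Arf-B 2 and 2, and without replicate 3 of Arf-B 1 and 5. Of 74 ribosomal protein genes 2 were higher and 4 lower, shares of 2.70% and 5.41%, and with the GC trend taken off 8 were higher and 4 lower. The counts were 1 and 1 without replicate 1 of Ctrlv2, 1 and 2 without replicate 3 of Ctrlv2, 2 and 2 without replicate 1 of Arf-B, and 1 and 3 without replicate 2 of Arf-B. Nucleolar and ribosome assembly genes were higher in 11 of 32 and lower in 2. The lower count was 9 without replicate 3 of Arf-B, and 1 without replicate 1 of Arf-B and with the GC trend taken off. Nop58, of the box C/D particles that guide RNA methylation, was at 39.6 ± 6.48 against 60.1 ± 3.76, and Dkc1, of the box H/ACA particles, at 69.4 ± 7.24 against 97.7 ± 3.19.

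Splicing regulators were mostly higher. Of 33 genes of the CLK kinases and SR proteins, which control splice site choice, 21 were higher and 1 lower (2 without replicate 3 of either group; median 0.23), and 15 and 2 with the GC trend taken off. Their median GC content was 43.9%, against 49.8% for all genes. Clk1 was at 6.53, 9.51 and 8.78 FPKM in Ctrlv2 against 31.7, 36.5 and 24.3 in Arf-B, Clk4 at 4.58 ± 0.636 against 11 ± 1.81, and the SR-like gene Tra2a at 22.7, 31.0 and 24.8 against 55.7, 59.4 and 50.6. All 3 had separate groups. The 316 tested genes with a Zfp symbol and number, mostly zinc finger repressors, had the same lean: 144 were higher and 26 lower, and 111 and 29 with the GC trend taken off. On chromosome 4 it was 21 of 27 higher and none lower, and 17 with the adjustment. Many of these genes come in clusters of similar copies, so reads may be shared among them.

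The 3 segments differed from the rest of the genome in that most of their genes were lower. On chromosome 14, 108 of 139 tested genes were lower (77.7%) and 3 higher, with a median log2 difference of -0.82. On chromosome 2 these were 138 of 225 (61.3%) and 10, with a median of -0.39, and on chromosome 4 they were 12 of 17 (70.6%) and 2, with -0.63. The segments were chosen with earlier results of these data known, so their values are a description. Among genes that averaged 5 FPKM or more, the median ratio of Arf-B to Ctrlv2 in FPKM was 0.495 on chromosome 14 (83 genes), 0.736 on chromosome 2 (135 genes) and 0.553 on chromosome 4 (9 genes), against 1.01 outside (7590 genes). Every Ctrlv2 library had a positive median deviation from the gene means in each segment and every Arf-B library a negative one. For chromosome 14 these were 0.45, 0.44 and 0.43 against -0.43, -0.41 and -0.44.

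**Figure D5:**
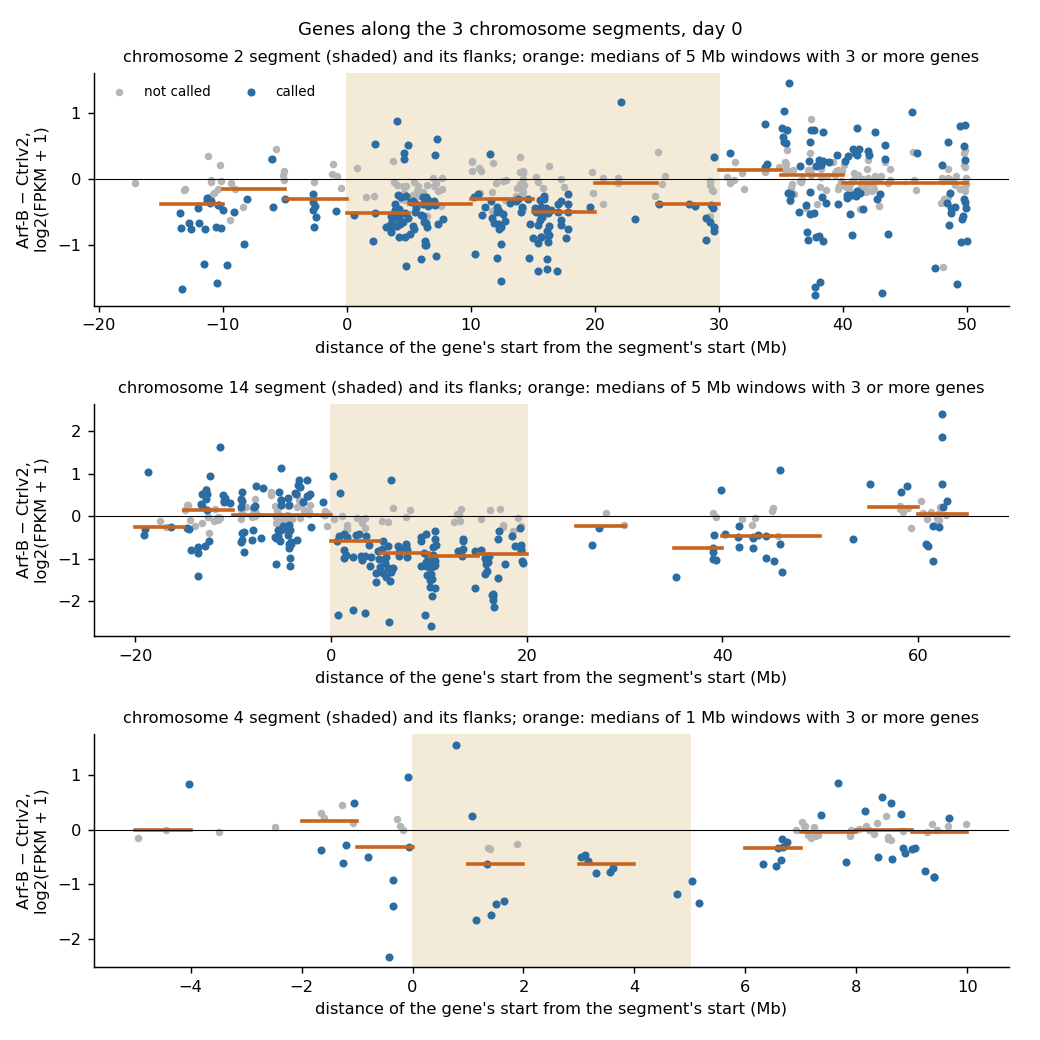
Log2 difference of Arf-B minus Ctrlv2 (y axis) against the distance from the segment's start in Mb (x axis), 1 point per tested gene, 1 panel per segment with its surroundings, and orange lines at the window medians (5 Mb, and 1 Mb on chromosome 4). On chromosome 14 the medians stay low past the end of the shaded segment.

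On chromosome 14 the most abundant gene was Tpt1 (75845093 to 75848525), which encodes the growth-related protein TCTP. It was at 1503, 1354 and 1560 FPKM in Ctrlv2 and 650.4, 708 and 671 in Arf-B. Tpt1-ps3, a processed copy on chromosome 6, was at 485 ± 41.6 against 196 ± 15.0, and reads of the 2 may be shared. Tsc22d1, for a leucine zipper protein that answers TGF-beta, was at 127, 119 and 137 against 33.2, 37.4 and 34.5 (log2 -1.84), and Elp3, the catalytic subunit gene of Elongator, at 138 ± 6.14 against 64.7 ± 3.25. Of the genes that averaged 5 FPKM or more in Ctrlv2, the deepest reductions were in Sorbs3, an adhesion adaptor gene (17.1, 13 and 16.5 against 2.05, 1.72 and 1.54), Clu, for the chaperone clusterin (16.7, 14.2 and 16.8 against 1.92, 2.14 and 1.95), and Loxl2, a lysyl oxidase gene of the matrix (9.0, 9.67 and 9.21 against 0.966, 1.06 and 1.13). Piwil2, the stem cell partner of piRNAs, was at 17.7 ± 1.46 against 4.12 ± 0.204. No library of one group reached the other in these genes. Ephx2, an epoxide hydrolase gene, was 1 of the 3 that were higher, at 25.9, 18 and 23.8 against 43.8, 47.0 and 33.0.

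On chromosome 4 Jak1 (101152367 to 101265282) was at 26.0, 26.7 and 28.1 FPKM in Ctrlv2 against 8.28, 7.73 and 7.55 in Arf-B (log2 -1.66, SE 0.084). Its neighbours Ak4, a mitochondrial adenylate kinase gene (26.1 ± 0.849 against 8.17 ± 0.108), and Leprot, a gene that shares its promoter region with the leptin receptor (74.0 ± 3.15 against 29.4 ± 1.94), were lower to a like extent. Cachd1, the gene of a calcium channel modulator, was higher, at 1.68, 1.38 and 1.41 against 7.04, 6.42 and 5.49. Groups were apart in all 4. The other gene higher there was Raver2 (log2 0.25), which starts between Cachd1 and Jak1. Its call was lost without replicate 1 of Arf-B or replicate 2 or 3 of Ctrlv2 (adjusted p = 0.0192, alternatives from 0.00588 to 0.078).

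On chromosome 2 the largest reductions were in Gpat2, a piRNA-linked acyltransferase gene (6.50, 6.70 and 6.82 against 1.99, 1.34 and 1.63 FPKM), Cpxm1, a carboxypeptidase-like gene (20.6, 19.7 and 21.8 against 6.89, 7.69 and 7.24), and Prnp, the prion protein gene (7.49 ± 1.31 against 2.25 ± 0.495). Pcna, for the sliding clamp of DNA polymerase, was at 250.1, 257 and 249.9 against 142, 158 and 171, and Dstn, for the actin-severing protein destrin, at 279 ± 13 against 185 ± 14.5. The Notch ligand gene Jag1 was higher, at 1.78, 1.80 and 1.64 against 5.24, 5.20 and 5.03, as was the sorbitol dehydrogenase gene Sord (14.9 ± 2.10 against 23 ± 2.72). Each of those given by library had groups that did not overlap.

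Low values went on past some of the segments' edges and stopped at others. Between 145 and 150 Mb of chromosome 2, just after the segment, 0 of 12 tested genes were lower and 4 were higher (median log2 0.14). In stretches picked after their values were seen, 32 of 58 tested genes were lower and 1 higher between 100 and 115 Mb of chromosome 2 (median log2 -0.33), and 21 of 33 lower and 2 higher between 80 and 110 Mb of chromosome 14 (-0.46), where Klf5 and Spry2 lie. The stretch on chromosome 2 was uneven. At 105 to 110 Mb 5 of 15 genes were lower, with a median ratio of 0.957, against 0.743 at 100 to 105 Mb and 0.762 at 110 to 115 Mb. Between 105 and 107 Mb of chromosome 4, 9 of 10 were lower, with a median of -0.45, and between 99 and 100 Mb, where Foxd3 lies, 5 of 9. Without these 110 genes, 3241 genes outside the segments were higher and 3065 lower. Over 337 windows of 5 Mb with at least 8 genes of 5 FPKM or more, the 12 with the lowest median ratio were 10 within the segments and 2 on chromosome 2 between 100 and 115 Mb. The other 325 windows had no median ratio below 0.8. On chromosome 14 the ratio was 0.648 at 60 to 65 Mb, 0.429 at 70 to 75 Mb and 1.04 just before the segment, at 55 to 60 Mb. At the other end of the scale, 10 genes at 175 to 180 Mb of chromosome 2 had a median ratio of 1.69 and 12 genes at 15 to 20 Mb of chromosome 17 one of 1.54.

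Arf-C cells, the second Arf line of the series, differed little from Arf-B at day 0. Between these lines 79 genes were called (0.546%), 49 higher (0.339%) and 30 lower (0.207%) in Arf-C. Fabp3 was at 264 ± 32.3 FPKM in Arf-C against 178 ± 4.06 in Arf-B (log2 0.56, adjusted p = 0.0175), and Id1 at 57.1 ± 3.82 against 40.9 ± 2.02 (log2 0.47, adjusted p = 0.00948). Dstn and Tex19.1 were lower in Arf-C (log2 -0.40 and -0.43). A gene that missed the threshold is not thereby shown to be alike in both lines. Against the same 3 Ctrlv2 libraries, which both comparisons share, 50.1% of genes were called in Arf-C and 45.9% in Arf-B. The log2 differences in Arf-B and Arf-C were 1.96 and 1.62 for Esrp1, 1.87 and 1.37 for Ccnd1, -2.58 and -2.50 for Mest, and -2.15 and -2.28 for Tcf7l1. The medians of the segments in Arf-C were -0.80 on chromosome 14, -0.38 on chromosome 2 and -0.54 on chromosome 4. In Arf-B at day 8, against the Ctrlv2 libraries of that day, they were -0.76, -0.41 and -0.54.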

How the data were processed

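RNA was sequenced from polyadenylated RNA of 18 libraries in 6 groups, and the 2 day 0 groups Ctrlv2 and Arf-B are compared here. The authors deposited FPKM values for 54532 genes in each library. Per the submitters' processing notes HISAT2, featureCounts, DESeq2 and mm10 were used, with no versions or roles given. Multiplied by gene length, the deposited FPKM values of a library are multiples of a single step, which returned whole reads for all 413772 values above 0 (tolerance 0.001). Gene positions had the same start, end and strand as GENCODE vM21 for 98.26% of genes.

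Values were taken as log2(FPKM + 1), a scale that understates the change of low genes. All 18 libraries entered 1 fit with a coefficient for each of the 6 groups (12 residual degrees of freedom), using R 4.3.3, limma 3.58.1 and statmod 1.5.0, with empirical Bayes moderation that was robust and followed the mean level. Benjamini-Hochberg adjustment of the two-sided p-values covered all 14474 genes, and genes below 0.05 are the called ones. On simulated data with 200 changed genes among 14474 this recovered 71% of changes of 1.5-fold and 90% of 2-fold. Unchanged genes made up 8% of its calls. The changed genes were drawn from those averaging 1 FPKM or more, each gene had the typical spread of its level, and no GC trend was put in. In the real data 45.9% of genes were called, so these rates cannot be carried over to those calls. Tables and figures used Python 3.11.15 with pandas 2.3.3, numpy 2.4.6 and matplotlib 3.10.9.

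The genes compared, the 54 gene lists and the segments were chosen with earlier results of these data known, and list counts are descriptions without a test. Named by rule were 6 genes around Cdkn2a and Cdkn1a, always, and called genes averaging 5 FPKM or more in the higher group, libraries that do not overlap and no predicted or numbered symbol. Of these, the 15 largest log2 differences and the 8 largest differences in mean FPKM per direction, 6 genes per segment and up to 4 called members of a list were taken (in a list without calls, its 2 most abundant genes). The rule does not cover the following, named after seeing their values: Tpt1, Tpt1-ps3, Pou5f1, Zfp42, Dstn, Sox2, Cdk4, Nanog, Pcna, Cldn4, Fn1, Krt18, Elp3, Trp53inp1, Spry2, Tsc22d1, Dusp6, Sohlh2, Tex19.1, Sord, Ephx2, Col4a2, Dcxr, Eda2r, Mael, Foxd3, Piwil2, Taf7l, Otx2, Sgce, Rhox1, Raver2, Dnmt3b and Klf6. Alternatives were a lower pseudocount (0.1), all genes kept, only genes averaging 1 FPKM, FPKM rescaled to the same sum, voom on the recovered reads, fits on 6 or on 9 libraries, the replicate block, leaving out each library, and removal of the GC trend by a loess curve (span 0.3) per library, the last chosen after seeing the data.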

Additional observations from a re-analysis of the deposited data

How the results depend on the processing

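Outside the segments the counts of genes called higher and lower stayed within 1.5 times the reported 3245 and 3132 under all 15 alternatives. Leaving out 1 library gave 2690 to 3148 higher and 2641 to 3099 lower. The counts at 2-fold or more moved with the scale: 220 higher and 379 lower became 559 and 818 with a pseudocount of 0.1, and 686 and 936 with voom on recovered reads, both of which shrink low genes less by construction. Leaving out 1 library gave 176 to 335 and 367 to 416, the 335 without replicate 2 of Ctrlv2. The segment medians kept their sign throughout. In the order chromosome 2, 14 and 4 they were -0.41, -0.85 and -0.67 with the GC trend taken off, -0.42, -0.91 and -0.71 with a mean of at least 1 FPKM, -0.17, -0.20 and -0.21 with no filter, which adds genes near 0, -0.49, -1.02 and -0.83 with a pseudocount of 0.1, and -0.50, -1.03 and -0.83 with voom. With FPKM rescaled to the same sum those of chromosomes 2 and 14 were -0.36 and -0.79. Leaving out 1 library gave -0.42 to -0.39, -0.87 to -0.82 and -0.69 to -0.57. With the replicate number as a block 3120 genes were higher and 3027 lower, 219 and 379 by at least 2-fold, and the segment medians were -0.39, -0.82 and -0.63. Same-numbered libraries did not deviate together (r = -0.04, -0.10 and -0.05), so the numbers are not read as pairs. Of 281 named genes, 18 lost their call with the GC trend taken off and 20 without replicate 1 of Ctrlv2. Reversed signs were few: the log2 difference of Cdkn1a was 0.018 with the GC trend taken off and 0.043 without replicate 1 of Ctrlv2, that of Eif1a -0.090 with the GC trend taken off, and that of Nanog -0.038 there and -0.102 to 0.199 when 1 library was left out (-0.084, -0.102 and -0.035 without replicates 1 and 2 of Arf-B and replicate 2 of Ctrlv2). Genes with few reads, such as Cdkn2a, limit what can be resolved.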

Other observations

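Genes of lysosomes and autophagy moved both ways. Of 31 tested, 10 were higher and 7 lower. Ctsa, for a protease that protects other lysosomal enzymes, was at 36.5, 29.9 and 32.9 FPKM in Ctrlv2 against 60.6, 58.6 and 58.1 in Arf-B, and Ulk1, the kinase that starts autophagy, at 23.1, 19.4 and 21.9 against 38.8, 38.1 and 35.9. Both had groups that did not overlap.

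Genes of amino acid stress and of interferon also lacked a common direction. Of 24 targets and partners of Atf4, the stress transcription factor, 7 were higher and 6 lower, and 4 were higher without replicate 1 or 2 of Arf-B or replicate 3 of Ctrlv2. Ddit3, for the stress factor Chop, was at 23.8, 17.3 and 22.3 FPKM against 42.7, 51.3 and 34.8, while Slc7a5, a transporter gene of large neutral amino acids, was at 208, 183 and 189 against 116, 121 and 114. Of 17 interferon and MHC genes 4 were higher and 7 lower. Ifitm1, also a marker of germ cells, was at 48.1, 40.8 and 46.7 against 87.4, 104 and 103, and Oas1a, an antiviral enzyme gene, at 4.08, 3.39 and 5.16 against 1.61, 1.57 and 2.47. Of 7 X-linked genes that escape or control X inactivation 5 were higher and none lower, 3 without replicate 1 of Ctrlv2. Over all 517 tested genes of chromosome X, 32.7% were higher and 16.4% lower. Xist was at 0.126, 0.314 and 0.181 against 0.769, 0.746 and 0.670 FPKM, a low level in both groups. It could not have passed the filter without Arf-B, so the filter itself favoured a higher value there.

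Of 13 Notch pathway genes 5 were higher and 4 lower. Dll1, a ligand gene, was at 0.511, 0.338 and 0.411 against 1.43, 1.59 and 1.35 FPKM, and Hes1, a direct target, at 37.4, 35.8 and 41.8 against 24.6, 30 and 25.2. Dll1 could not have passed the filter without Arf-B, so the filter itself favoured a higher value there. Of 18 genes of the YAP and TEAD pathway 4 were higher and 8 lower. Ctgf, a target, was at 7.77, 5.22 and 7.49 against 3.11, 3.26 and 2.96, and Tead4, a DNA-binding partner of YAP, at 18.3, 16.9 and 16.1 against 10.8, 8.62 and 11.3. None of these 4 genes had overlapping groups.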
